A study of Mus musculus with 18 samples.

Results

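The late transcriptional response of cultured mouse plasmacytoid dendritic cells (pDCs) to imiquimod was read from 6 of the 18 RNA-seq libraries of the series: 3 from cells given imiquimod for 16 h and 3 from cells given the vehicle for the same time. Membership followed the sample labels alone, and no measured value was used to choose a library. The cells came from wild-type C57BL/6 bone marrow that had been cultured for 7 days with Flt3 ligand at 80 ng/mL and then enriched on magnetic beads for B220, a surface protein, with a stated usual purity of 80%. All 6 libraries share that origin, so the comparison concerns cells grown in culture and not pDCs taken from a tissue. Imiquimod was used at 2.5 µg/mL in 96-well plates. The vehicle is labelled LAL, which stands for Limulus amebocyte lysate, and the labels do not make clear whether this was the lysate or the water sold with that assay. The other 12 libraries (untreated and vehicle at 0 h, vehicle and imiquimod at 6 h, 3 each) enter as a time reference. Whether the 3 libraries of each group are from different mice or cultures is not stated, so the p-values below rest on the spread among libraries alone, and that spread may be technical.

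pDCs sense single-stranded RNA in endosomes through the receptor TLR7, which imiquimod, a small imidazoquinoline, also engages. TLR7 signals through the adaptor MYD88 to transcription factors of the NF-kappaB and interferon regulatory factor families. The cell then makes interferons, cytokines and chemokines, and interferon acting back on the cell turns on interferon-stimulated genes. Activated pDCs are also known to take on dendritic cell features such as co-stimulatory proteins, and to lose part of the expression programme that marks the resting cell.

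Total counts were 10609741 to 11237396 in the vehicle libraries and 12413986 to 13447018 in the imiquimod libraries, and rRNA genes took 16.9% to 17% and 11.9% to 13.2% of them. In a principal component analysis of the 6 libraries, the groups lay apart on the leading axis, which carried 99.2% of the variance analysed. Only genes chosen for high variance among these same libraries entered it. That choice favours genes that differ between the groups, so neither the share nor the separation tests the group difference. Values are given in CPM (counts scaled to a common library size after TMM), the fold changes are log2 values of imiquimod over vehicle with n = 3 libraries a group, and the adjusted p-values are from edgeR. In bulk samples like these, fewer cells of a type and less RNA per cell cannot be told apart. The 10 pDC markers summed to 6604 to 6679 CPM with vehicle and 2749 to 2807 CPM with imiquimod, so the labelled cell type was well represented in both groups, at a lower level with imiquimod. The cDC1 markers summed to 1217 to 1265 CPM with vehicle and 504 to 539 CPM with imiquimod. The cDC2 markers summed to 301 to 307 CPM and 141 to 145 CPM, and the monocyte or macrophage markers to 420 to 430 CPM and 136 to 156 CPM. The neutrophil and erythroid marker sums were at most 8.09 and 4.02 CPM in any of the 6 libraries.

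Imiquimod changed most of the transcriptome at 16 h. Of 14876 genes tested, 5818 were higher (39.1%) and 5672 lower (38.1%) at an adjusted p under 0.05, together 77.2%, and the median log2 fold change was -0.0033. The 2 groups of libraries did not overlap in 78.7% of the genes tested. With a change of at least 2-fold as well, 2470 genes were higher (16.6%) and 2498 lower (16.8%). The largest classes of change were uneven in direction: 109 genes were higher and 55 lower by at least 64-fold on the fitted scale. With so many genes changed, a count in a gene list below is to be read against 39.1% higher and 38.1% lower.

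**Figure D1:**
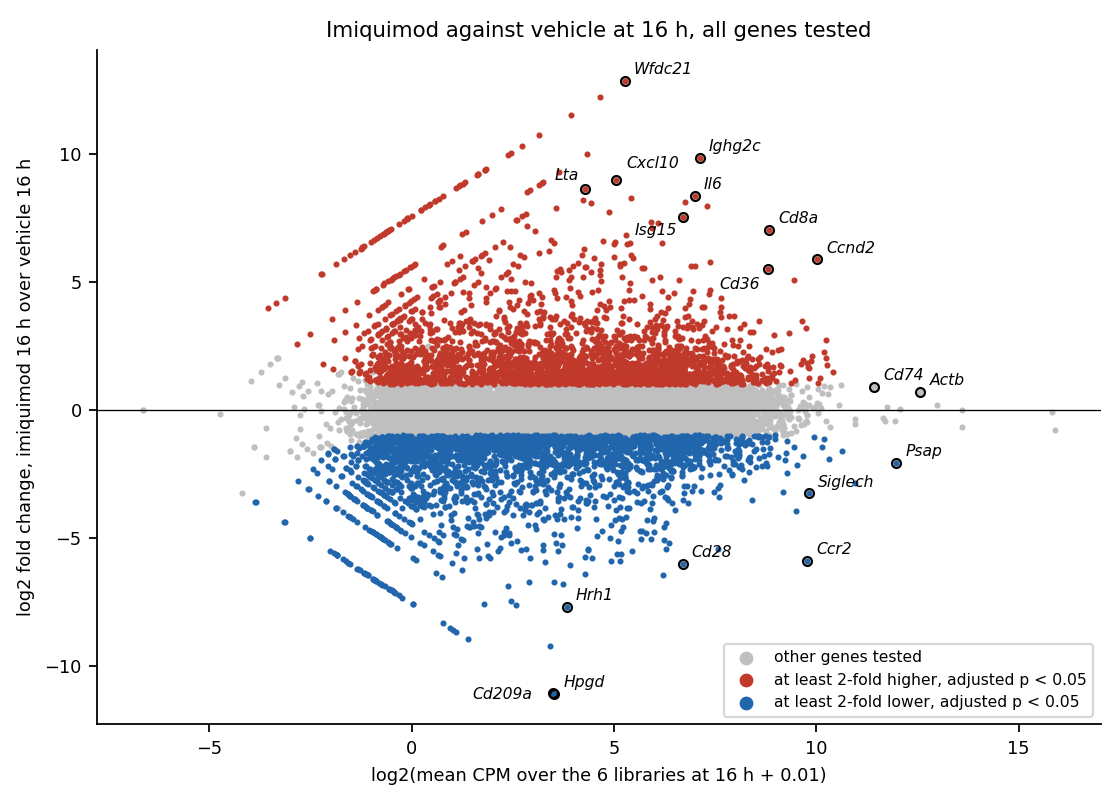
Log2 fold change of imiquimod over vehicle at 16 h (vertical) against the log2 of the mean level over the 6 libraries plus 0.01 CPM (horizontal), 1 point per gene tested. Red points (2470) were at least 2-fold higher and blue points (2498) at least 2-fold lower at an adjusted p under 0.05, and the oblique rows of points at the left are genes with few or 0 counts in 1 group.

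The sharpest rises were picked by fold change from called genes that averaged 10 CPM or more. Their near silence with vehicle follows from that choice and is not a result. Il6 (chr5:30013114-30019981, mm10), which encodes the inflammatory cytokine interleukin 6, had 0.735, 0.798 and 0.783 CPM with vehicle and 258, 251 and 258 CPM with imiquimod. Every imiquimod library was far above every vehicle library, a log2 change of 8.35 (SE 0.099, adjusted p = 1.48e-73). Wfdc21 (chr11:83746940-83752642), a gene of a small secreted protein with a protease-inhibitor-like fold, had 0 counts in the 3 vehicle libraries and 75.7, 75.7 and 80.5 CPM with imiquimod, which is at least 867-fold higher against a floor of 3 counts over the group. Gpr31b, a G protein-coupled receptor gene, had 0 counts in the 3 vehicle libraries and 30.5, 33.3 and 27.7 CPM with imiquimod, at least 343-fold higher, although 80.4% of its 75 nt windows also occur in other transcripts and its reads are uncertain. Both genes were read in each of the imiquimod libraries and in none of the vehicle libraries. Sardh, the gene of the mitochondrial enzyme sarcosine dehydrogenase, had 927 counts with imiquimod and 3 with vehicle, and the ratio was 263 (exact 95% interval 89.9 to 1279.9), an interval that covers counting error only. Cd300e, which encodes an activating receptor of myeloid cells, rose by 8.19 from 4 counts to 1489. Tgtp1, a gene of an interferon-inducible GTPase, rose by 8.09 (SE 0.20), with 77.2% of its windows shared with other transcripts.

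The sharpest falls were picked from the same genes of at least 10 CPM on average. Their moderate to high level with vehicle follows from that choice and is not a result. Ccr2 (chr9:124101950-124113557), the receptor gene through which cells follow CCL2 out of the bone marrow, had 1693, 1761 and 1732 CPM with vehicle and 28.5, 28.9 and 28.1 CPM with imiquimod. The groups were far apart, a log2 change of -5.92 (SE 0.047, adjusted p = 3.19e-85). Cd209a, a marker gene of the cDC2 subset that encodes a lectin of the DC-SIGN family, had 20.2, 25.1 and 21.9 CPM with vehicle and 0 counts in the 3 imiquimod libraries, at least 295-fold lower. Hpgd, which encodes the enzyme that inactivates prostaglandins, had 20.7, 25.3 and 23.1 CPM with vehicle and 0 counts in the 3 imiquimod libraries, at least 303-fold lower. No read of either gene was left in the imiquimod libraries. Matn2, an extracellular matrix protein gene, went from 722 counts to 1, and the ratio was 847 (exact 95% interval 152 to 33493) in favour of vehicle. Cd28, best known as the co-stimulatory receptor of T cells, fell (log2 -6.03, SE 0.070) from 205 ± 5.64 to 3.11 ± 0.296 CPM. The remaining members of the 12 with the largest fall were Hrh1 (histamine H1 receptor, -7.69), Abca6 (lipid transporter family, -6.80), Hepacam2 (cell adhesion, -6.74), Plekha6 (-6.44), B3galt5 (a galactosyltransferase, -6.08), Itga1 (the collagen-binding integrin alpha 1 chain, -5.90) and Tenm4 (a teneurin, -5.80).

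The largest changes in CPM came from genes of several kinds, including H2-K1, H2-D1, B2m and Cd74 of antigen presentation, whose values are given with their lists. Ccnd2, which encodes the G1 cyclin D2, had 35.1, 35.9 and 33.8 CPM with vehicle and 2087, 2005 and 2064 CPM with imiquimod. All 3 imiquimod libraries exceeded the vehicle libraries, by 5.88 (SE 0.046, adjusted p = 9.23e-86) on the log2 scale. Helz2, an interferon-induced helicase gene, rose from 133 ± 5.42 to 1462 ± 34.5 CPM. Actb, the beta-actin gene, rose by 0.70 from 4657 ± 46.3 to 7539.6 ± 108 CPM, and Fscn1, which encodes the actin-bundling protein fascin of mature dendritic cells, by 3.18 from 171 ± 14.2 to 1547 ± 43.0 CPM. In the other direction, Psap, the gene of the lysosomal precursor prosaposin, had 6495, 6600.5 and 6479 CPM with vehicle and 1548, 1502 and 1573 CPM with imiquimod. Its groups did not overlap and the log2 fold change was -2.08 (SE 0.041, adjusted p = 1.88e-39). Ahnak, a large scaffold protein gene, fell (log2 -2.87) from 3499 ± 90.2 to 479 ± 4.23 CPM. Macf1, which encodes a linker of actin and microtubules, went from 2016 to 524 CPM, Mbnl1, a splicing regulator gene, from 2398 to 783 CPM, and Mpeg1, which encodes the pore-forming perforin-2, from 4559 to 3337 CPM. Kctd12 fell from 1359 to 87.6 CPM, but 62.8% of its exon bases overlap a gene on the other strand and its reads cannot be assigned with certainty, since the strand setting of the counting was not given in the sources used here.

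The receptor of imiquimod changed little by 16 h. Tlr7 had 270.2, 269 and 278 CPM with vehicle and 292, 290.2 and 287 CPM with imiquimod, values that did not overlap but lay within a narrow range, and it was not called (log2 0.09, SE 0.053, adjusted p = 0.13). It was called at 0.09 with no expression filter (adjusted p = 0.0240) and at 0.07 in a fit of only these 6 libraries (adjusted p = 0.0184). Of the 13 listed Toll-like receptors and their chaperone, 12 were tested, of which 4 rose and 6 fell. The 4 that rose were Tlr1 (2.16), Tlr12 (1.21), Tlr13 (0.81) and Tlr9, the DNA sensor of pDCs (0.54). Tlr11, a receptor for a protozoan profilin, had 24.8, 21.5 and 25.8 CPM with vehicle and 0.439, 0.751 and 0.321 CPM with imiquimod. It was far lower in every imiquimod library, a log2 change of -5.54 (SE 0.19, adjusted p = 2.66e-40). Tlr3, the sensor of double-stranded RNA, fell (log2 -3.22) and Unc93b1, the chaperone that carries TLR7 to endosomes (log2 -0.62), the latter chosen after its value was seen.

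The adaptors and kinases downstream of TLR7 were split. Of 24 listed, 23 were tested, 11 rose, 9 fell and 3 (Chuk, Tollip and Map3k7) were not called. Their median of -0.01 was close to that of all genes. Slc15a4, which encodes the endosomal transporter that TLR7 signalling in pDCs needs, had 324, 314 and 324 CPM with vehicle and 131, 123 and 125 CPM with imiquimod. It was lower in each imiquimod library, at a log2 change of -1.34 (SE 0.036, adjusted p = 4.21e-49). The related transporter gene Slc15a3 rose by 2.45, with 28.1% of its exon bases overlapping a gene on the other strand, and Ikbke, a kinase gene of the interferon pathway, by 1.95. Irak3, the gene of an inhibitory kinase of the same pathway, rose by 1.5, and Myd88 fell slightly, at a log2 change of -0.21 (adjusted p = 0.000171).

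Interferon genes themselves were barely read at 16 h, while the genes that interferon induces were strongly raised. The 20 interferon genes of types I and III on the list held 18 counts over the 3 imiquimod libraries (0.456 CPM) and 1 over the vehicle libraries (0.0297 CPM), and none of them passed the expression filter. Ifnb1, the interferon beta gene, had 4 counts against 0 and was not called with no filter (adjusted p = 0.114). Ifnl2, a type III interferon gene, had 7 counts against 0 and was called with no filter (adjusted p = 0.0273). Of 69 listed interferon-stimulated genes 68 were tested, 64 rose and 2 fell (1 without imiquimod replicate 1), with a median log2 fold change of 2.83 against -0.0033 for all genes, and 54 rose at least 2-fold. Isg15 (chr4:156199424-156200818), the gene of a ubiquitin-like antiviral modifier, had 0.827, 1.68 and 0.870 CPM with vehicle and 212, 191 and 224 CPM with imiquimod. Every imiquimod library was far above every vehicle library, with a log2 change of 7.52 (SE 0.098, adjusted p = 1.29e-63). Oasl1, of the oligoadenylate synthetase family, had 0.643, 0.621 and 1.04 CPM with vehicle and 221, 198 and 225 CPM with imiquimod, a log2 change of 8.10 (SE 0.11, adjusted p = 1.46e-57). Slfn1, a Schlafen family gene, had 0 counts in the 3 vehicle libraries and 18.1, 16.3 and 18.7 CPM with imiquimod, at least 198-fold higher. The exceptions were Ly6c2, a surface antigen gene (-0.68), and Mndal (-0.11), which fell, and Bst2, the tetherin gene that also marks resting pDCs (0.04, adjusted p = 0.422), and Ifi27 (-0.13), which were not called.

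The transcription factors of the pathway were mixed. Of 16 listed interferon regulatory factors and STATs 15 were tested, 9 rose and 3 fell. Irf7, the master regulator of interferon genes, had 45.8, 48.4 and 64.8 CPM with vehicle and 546, 509.6 and 577 CPM with imiquimod. The lowest imiquimod library was well above the highest vehicle library, with a log2 change of 3.36 (SE 0.092, adjusted p = 1.61e-13). Stat2, which carries the interferon receptor's signal, rose by 1.37, and Stat4, which relays interleukin 12, by 2.76, with 19.5% of the windows of Stat4 shared with other transcripts. Irf8, a lineage factor of pDCs, fell (log2 -0.55, SE 0.031), as did Irf4 (-0.22) and Irf2 (-0.21). Irf5 (-0.02, adjusted p = 0.696), Irf3 (-0.01) and Stat5b (-0.02) were not called.

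The 250 bases before the start of 5 of the genes that rose are shown because they hold a match to a letter pattern of a factor of these pathways. They are RefSeq sequences of GRCm38.p6, written 5′ to 3′ on the gene's strand. Capitals mark the matches: GAAANNGAA, the core of the interferon-stimulated response element, GGANTTTCC for NF-kappaB and TTTCGCGC for E2F, on either strand. Isg15 holds 3 overlapping GAAANNGAA matches, which start 78, 72 and 66 bases before the gene start, and 1 of GGANTTTCC.
Isg15 (chr4:156200819-156201068, minus strand): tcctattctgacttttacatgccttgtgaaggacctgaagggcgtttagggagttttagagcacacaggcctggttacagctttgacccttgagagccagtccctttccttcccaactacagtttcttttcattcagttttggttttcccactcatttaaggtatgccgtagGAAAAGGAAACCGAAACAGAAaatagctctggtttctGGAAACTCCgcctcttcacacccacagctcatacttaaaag
Cxcl10 (chr5:92348890-92349139, minus strand): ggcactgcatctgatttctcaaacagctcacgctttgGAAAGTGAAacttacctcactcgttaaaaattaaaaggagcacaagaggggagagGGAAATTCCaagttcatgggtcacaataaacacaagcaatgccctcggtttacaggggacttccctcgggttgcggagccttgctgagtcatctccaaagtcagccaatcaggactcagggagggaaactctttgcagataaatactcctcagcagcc
Il6 (chr5:30012864-30013113, plus strand): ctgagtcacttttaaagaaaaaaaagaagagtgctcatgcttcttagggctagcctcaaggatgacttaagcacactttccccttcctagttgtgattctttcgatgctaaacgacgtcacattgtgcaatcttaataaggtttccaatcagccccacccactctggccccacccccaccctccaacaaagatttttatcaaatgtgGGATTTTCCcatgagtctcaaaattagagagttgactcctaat
Cd274 (chr19:29367188-29367437, plus strand): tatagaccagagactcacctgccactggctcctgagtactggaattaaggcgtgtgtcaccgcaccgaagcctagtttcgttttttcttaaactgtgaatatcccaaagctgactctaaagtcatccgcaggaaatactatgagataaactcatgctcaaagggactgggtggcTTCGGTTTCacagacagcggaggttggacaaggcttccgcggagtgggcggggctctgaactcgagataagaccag
Cdk1 (chr10:69352913-69353162, minus strand): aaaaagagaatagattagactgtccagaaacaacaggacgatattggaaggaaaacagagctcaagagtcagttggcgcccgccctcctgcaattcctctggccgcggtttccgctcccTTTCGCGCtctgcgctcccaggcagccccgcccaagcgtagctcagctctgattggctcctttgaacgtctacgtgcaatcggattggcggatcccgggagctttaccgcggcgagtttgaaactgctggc

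The same patterns were counted over the RefSeq windows, which existed for 9841 of the genes tested. GAAANNGAA occurred in 28 of 65 windows of the interferon-stimulated genes (43.1%, 52 genes), in 6.47% of the windows of all genes tested and in 7.13% of the whole table. It occurred in 8.45% of windows of genes at least 2-fold higher and in 5.64% of those at least 2-fold lower. Among other lists, it occurred in 3 of 10 chemokine windows (30.0%) and in 8 of 40 of the cytosolic ribosomal protein genes (20.0%). In the inflammatory cytokine genes it occurred in 0 of 18 windows. GGANTTTCC occurred in 3 of 10 windows of the chemokine genes (30.0%), in 3 of 18 of the inflammatory cytokine genes (16.7%) and in 4 of 29 of the NF-kappaB subunit and feedback genes (13.8%), against 1.20% of windows of genes tested. TTTCGCGC occurred in 4 of 38 windows of the DNA replication genes (10.5%) and in 1 of 32 of the mitosis genes (3.12%), against 0.497%. TCACNCCAC, of the sterol regulatory element, occurred in 1 of 20 windows of the cholesterol synthesis genes (5.0%), against 1.02%. A match describes the letters in the window and is not evidence that a factor was bound.

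Inflammatory cytokine genes were raised with few exceptions. Of 23 listed 18 were tested, 15 rose and 3 fell, with a median of 4.49. Il12b, which encodes the p40 chain of interleukins 12 and 23, had 13.4, 14.2 and 13.2 CPM with vehicle and 315, 319 and 305 CPM with imiquimod. The imiquimod libraries were all far above the vehicle libraries, and the log2 fold change was 4.52 (SE 0.055, adjusted p = 5.68e-73). Il12a, the gene of the p35 chain that completes interleukin 12, went the other way, from 4.44 ± 0.991 to 1.21 ± 0.216 CPM (log2 -1.86, SE 0.23, adjusted p = 1.33e-11). Tnfsf15, which encodes the TNF-family cytokine TL1A, had 0.0919, 0.621 and 0.0870 CPM with vehicle and 87.1, 89.2 and 81.2 CPM with imiquimod, a log2 change of 8.27 (SE 0.15, adjusted p = 6.95e-61). Il27, the gene of the p28 chain of interleukin 27, had 0 counts in the 3 vehicle libraries and 6.51, 5.86 and 6.33 CPM with imiquimod, at least 69.9-fold higher. Both genes were silent or nearly so in the vehicle libraries. Il10, whose product damps inflammation, went from 3 to 258 counts, and the ratio was 73.3 (exact 95% interval 24.8 to 358). Il1b, which encodes interleukin 1 beta, rose by 4.45. Il16 fell (log2 -3.67) from 210.2 to 16.6 CPM and Il18 (log2 -1.59).

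Chemokine genes rose and most of their receptors fell. Of 22 listed chemokine genes 14 were tested, 11 rose and 3 fell, with a median of 3.25. Cxcl10, a ligand gene of the chemokine receptor CXCR3, had 0.0919, 0.177 and 0.0870 CPM with vehicle and 61.2, 63.4 and 72.6 CPM with imiquimod. It was nearly unread in the vehicle libraries and rose by 8.99 (SE 0.18, adjusted p = 1.71e-55). Ccl3, a monocyte and T cell attractant, had 1.38, 1.51 and 0.870 CPM with vehicle and 322, 310.1 and 308 CPM with imiquimod, a log2 change of 7.96 (SE 0.091, adjusted p = 1.19e-66). Ccl4 (a close relative of Ccl3, 6.80), Cxcl9 (another CXCR3 ligand, 5.83), Ccl5 (a T cell attractant, 3.47) and Ccl22 (a ligand of CCR4, 3.03) also rose. Cxcl11 had 63 counts against 0, at least 17.9-fold, with 41.7% of its exon bases overlapping a gene on the other strand. The 3 that fell were Ccl6 (-1.97), Cxcl12 (-1.35) and Ccl9 (-1.34), and Ccl17, untested, had 6 counts with imiquimod and 5 with vehicle.

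Of 27 listed chemokine receptor and homing genes 23 were tested, 19 fell and 4 rose, with a median of -1.31. Ccr1, an inflammatory chemokine receptor gene, had 55.5, 59.2 and 60.3 CPM with vehicle and 1.83, 1.58 and 1.92 CPM with imiquimod, and Cxcr3 had 26.6, 26.0 and 25.6 CPM with vehicle and 1.32, 1.65 and 1.04 CPM with imiquimod. Both were below every vehicle library, with log2 fold changes of -5.03 (SE 0.11, adjusted p = 3.56e-56) and -4.27 (SE 0.15, adjusted p = 6.16e-42). Ccr9, the gut-homing receptor gene of resting pDCs, had 1044, 1032 and 1052 CPM with vehicle and 186, 193 and 181 CPM with imiquimod, a log2 change of -2.48 (SE 0.037, adjusted p = 2.81e-62). Ccr3, an eosinophil receptor gene, had 42 counts with vehicle and 0 with imiquimod, at least 16.4-fold lower. Those that rose were Fscn1, described above, Cxcr5, a B cell follicle receptor gene (1.45), Itgam (0.35) and Ccr7. Ccr7, which guides mature dendritic cells to lymph nodes, had 157, 142 and 139 CPM with vehicle and 1158, 1119 and 1155 CPM with imiquimod. It was higher in each imiquimod library, opposite to Ccr9 and Ccr2, and rose by 2.97 (SE 0.037, adjusted p = 2.64e-72).

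**Figure D2:**
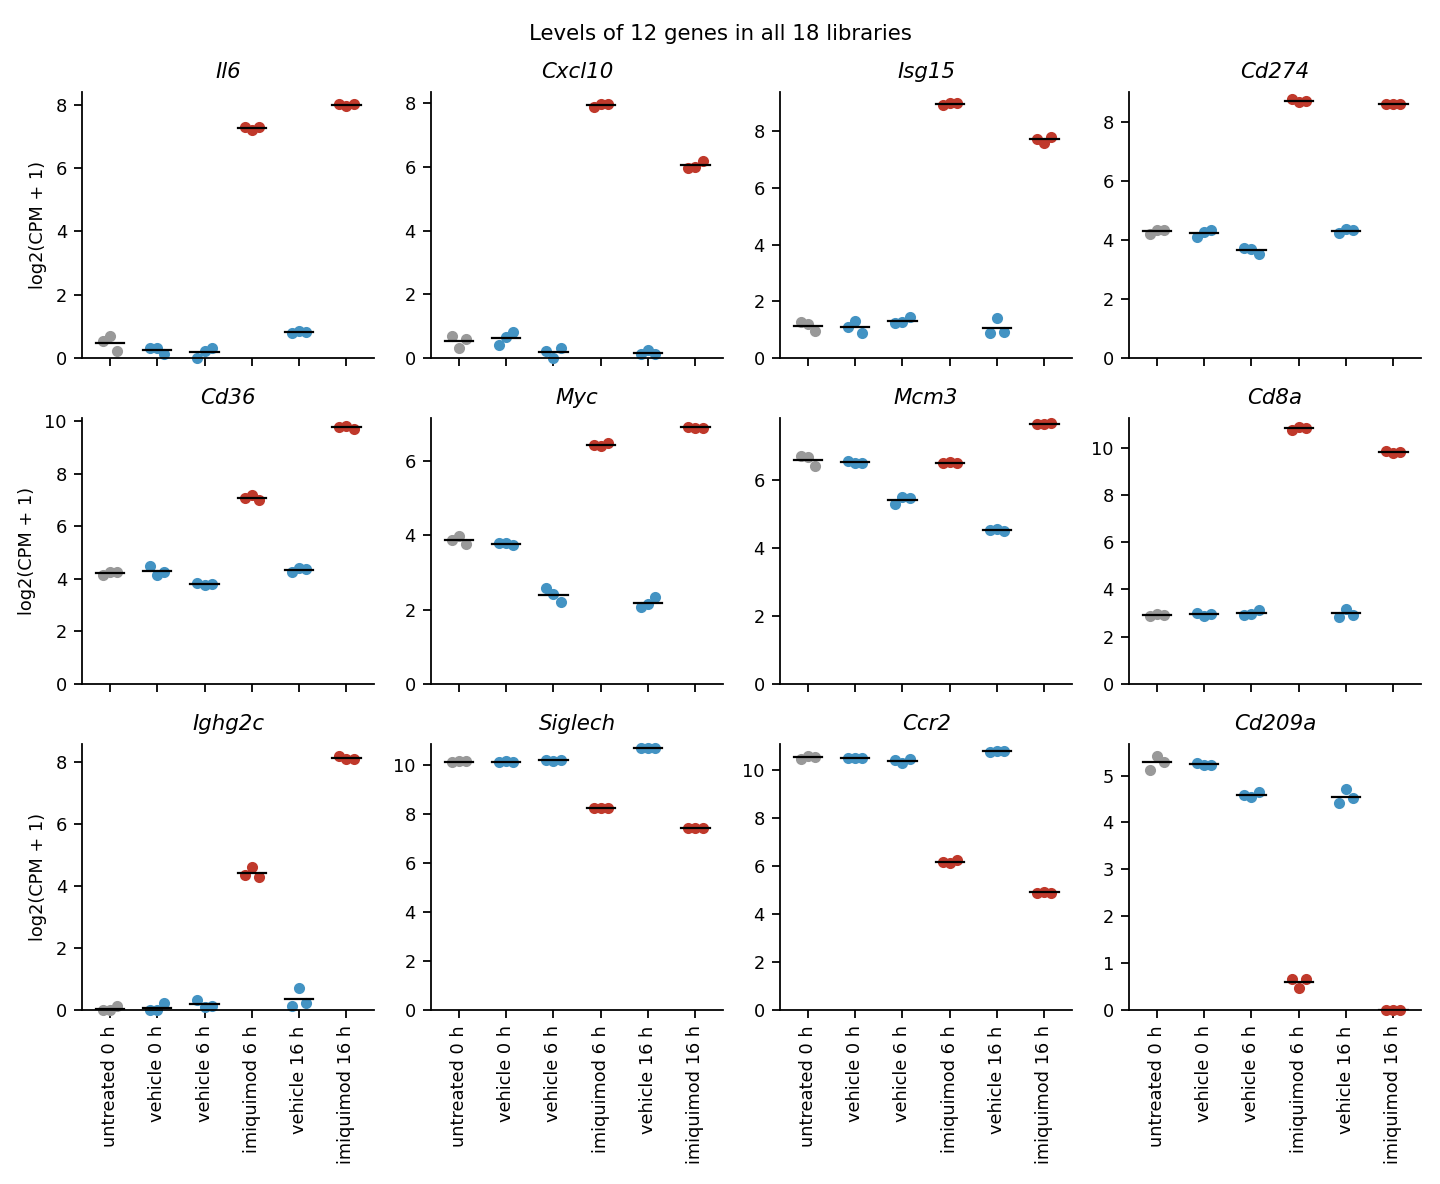
Level of 12 genes as log2(CPM + 1) (vertical) in the 18 libraries, by group (horizontal); points are libraries and lines are group means. With imiquimod at 16 h (red, right) Il6, Cxcl10, Isg15, Cd274, Cd36, Myc, Mcm3, Cd8a and Ighg2c were above the 16 h vehicle (blue) and Siglech, Ccr2 and Cd209a below it; Mcm3, a replication gene, was chosen after its values were seen.

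NF-kappaB subunit and feedback genes stayed raised at 16 h. All 26 listed were tested, 23 rose and 2 fell (Tnip2, -0.40, and Nfkbid, -0.38), with a median of 1.43. Socs3 and Socs1 encode inhibitors of cytokine signalling. Socs3 had 7.63, 6.74 and 7.74 CPM with vehicle and 148, 156 and 162 CPM with imiquimod, a log2 change of 4.39 (SE 0.070, adjusted p = 1.4e-64). Socs1 had 2.11, 2.13 and 2.26 CPM with vehicle and 25.1, 30.0 and 31.3 CPM with imiquimod, a log2 change of 3.72 (SE 0.13, adjusted p = 1.47e-40). Neither gene's groups overlapped. Tnip3, an inhibitor of NF-kappaB activation, rose by 4.11, Nfkbiz, which encodes a nuclear co-activator of NF-kappaB, by 3.44, Nfkbia, the inhibitor that holds NF-kappaB in the cytoplasm, by 3.15, and Tnfaip3, the gene of the deubiquitinase A20, by 1.80.

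Most maturation genes rose. Of 24 listed co-stimulation and maturation genes 22 were tested, 19 rose and 3 fell, with a median of 2.31, and 17 rose at least 2-fold. Cd40, the receptor through which T cells license dendritic cells, had 15.4, 17.8 and 16.4 CPM with vehicle and 272, 262 and 276 CPM with imiquimod. No imiquimod library came near the vehicle libraries, and the log2 fold change was 4.03 (SE 0.052, adjusted p = 7.87e-71). Cd69, an early activation antigen gene, had 6.25, 5.85 and 5.13 CPM with vehicle and 135, 144 and 144 CPM with imiquimod, a log2 change of 4.62 (SE 0.073, adjusted p = 6.2e-65). Cd80, Cd86 and Cd83 encode surface proteins of mature dendritic cells, the first pair being ligands of CD28. Cd80 rose by 2.78, Cd86 by 2.37 and Cd83 by 1.76. The TNF-family ligand genes for T cell co-stimulation, Cd70 (4.29, 122 counts against 5) and Tnfsf4, the OX40 ligand (3.24), also rose. Slamf7 (-1.12), Tnfsf8 (-0.93) and Cd48 (-0.16) fell.

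Genes that restrain T cells also rose more often than they fell. Of 28 listed checkpoint and regulatory genes 24 were tested, 16 rose and 7 fell, with a median of 1.42. Cd274, which encodes the inhibitory ligand PD-L1, had 17.8, 19.4 and 19.1 CPM with vehicle and 383, 387 and 384 CPM with imiquimod. The 3 imiquimod values lay close together and far above the vehicle values, and the log2 fold change was 4.35 (SE 0.050, adjusted p = 1.73e-74). Pdcd1lg2, the PD-L2 gene, rose by 3.06 from 0.503 to 4.27 CPM. Ido1 and Ido2, genes of tryptophan-degrading enzymes, rose by 3.13 and 2.66. Ptgs2, the inducible cyclooxygenase gene, rose by 4.40 and Lgals9, which encodes galectin-9, by 3.23. The 5 that fell at least 2-fold were Havcr2, the TIM-3 gene (-2.91), Cd200r1, an inhibitory receptor gene (-2.66), Cd276, the B7-H3 gene (-2.03), Entpd1, which encodes the ectoenzyme CD39 (-1.59), and Vsir, the VISTA gene (-1.47).

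All 24 MHC class I presentation genes were tested and all 24 rose, 18 of them at least 2-fold, with a median of 1.5. H2-K1, a classical class I heavy chain gene, had 396, 401 and 411 CPM with vehicle and 1961, 1849 and 1975 CPM with imiquimod. Its groups did not overlap, and the log2 fold change was 2.26 (SE 0.035, adjusted p = 6.56e-65). H2-D1 rose by 2.00, B2m, the shared light chain, by 1.76, and Nlrc5, the transactivator of class I genes, by 2.37. The non-classical H2-Q7 (3.99), H2-Q6 (3.81) and H2-Q4 (3.61) rose further, though these near-identical genes can exchange reads. Class II genes were split: of 17 listed 16 were tested, 9 rose and 6 fell, with a median of 0.44. H2-Ab1 and H2-Eb1, class II beta chain genes, rose by 1.24 and 1.23, and Cd74, the invariant chain, by 0.90 from 1923 ± 84.5 to 3592 ± 112 CPM. Lgmn, a protease gene of antigen processing, rose by 1.86. March1, whose product marks class II for degradation, had 162, 175 and 177 CPM with vehicle and 45.8, 48.6 and 43.0 CPM with imiquimod. It was lower in every imiquimod library, at a log2 change of -1.90 (SE 0.046).

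Several death ligand genes rose, while the granule proteins of killer cells were hardly read. Of 24 listed genes 15 were tested, 9 rose and 5 fell, with a median of 1.85. Tnf, the gene of tumour necrosis factor, had 1.56, 1.95 and 3.22 CPM with vehicle and 109, 99.3 and 106 CPM with imiquimod. Lta, which encodes lymphotoxin alpha, had 0, 0.177 and 0.0870 CPM with vehicle and 41.9, 38.5 and 36.9 CPM with imiquimod. Neither gene's groups overlapped: Tnf rose by 5.53 (SE 0.10, adjusted p = 8.09e-56) and Lta had 1545 counts against 3, and the ratio was 439 (exact 95% interval 150.0 to 2132). Tnfsf10, the gene of the death ligand TRAIL, had 1.10, 2.22 and 2.61 CPM with vehicle and 8.41, 7.74 and 9.38 CPM with imiquimod, a log2 change of 2.09 (SE 0.18, adjusted p = 1.91e-17). Nos2 encodes the inducible enzyme that makes nitric oxide, and its 197 counts against 1 gave a ratio of 168 (exact 95% interval 29.8 to 6667). Ifng, the interferon gamma gene, had 0 counts in the 3 vehicle libraries and 4.39, 5.48 and 4.97 CPM with imiquimod, at least 55.4-fold higher, with 16.2% of its windows shared with other transcripts. TRAIL and nitric oxide can both kill target cells, and interferon gamma is usually a product of lymphocytes.

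Gzmb (granzyme B) had 9 counts over the imiquimod libraries and 0 over the vehicle libraries, and Prf1 (perforin) 7 and 0. Both were too low for the filter. With no filter both were called (adjusted p = 0.00774 and 0.0312), while Fasl, with 3 counts against 0, was not (adjusted p = 0.188). Against the floor, Gzmb was at least 2.56-fold and Prf1 at least 1.99-fold higher. The 5 tested genes that fell were Klrd1, an NK receptor gene, from 147 to 4.24 CPM (log2 -5.10), Tnfsf14 (-2.30), Klrk1 (-0.89), Ctsw (-0.87) and Ltb (-0.63).

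**Figure D3:**
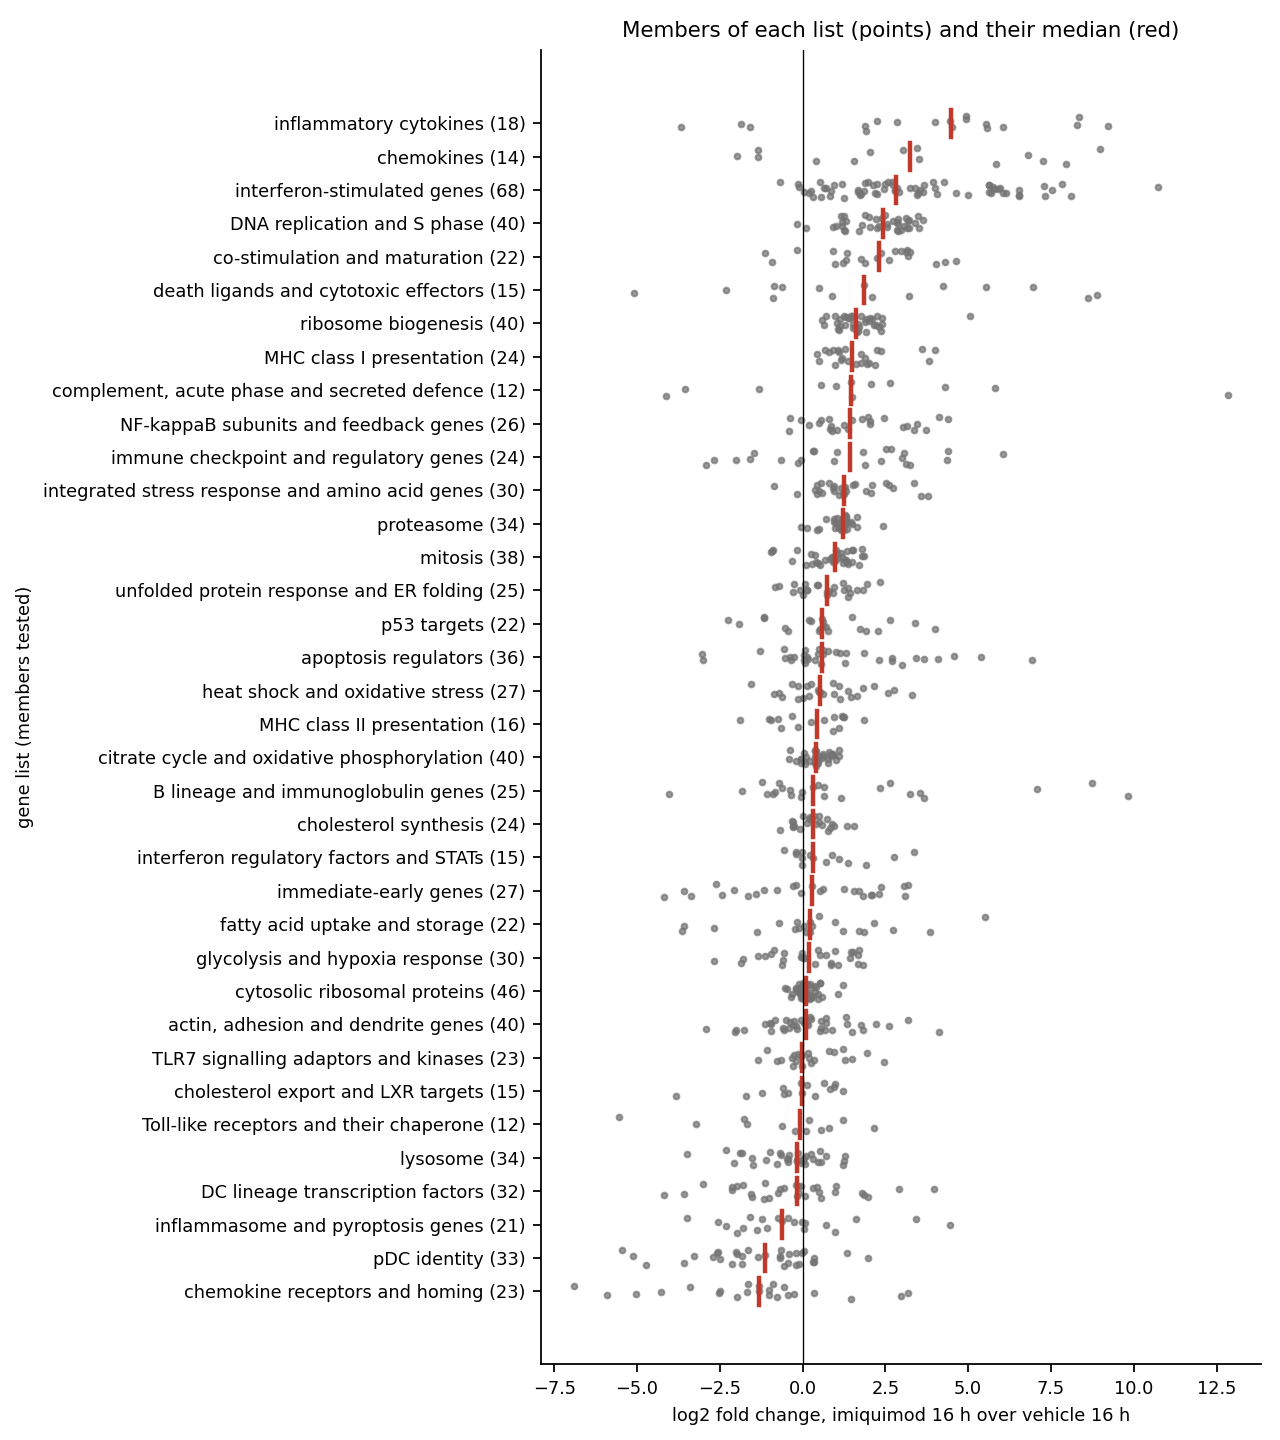
Log2 fold change of imiquimod over vehicle at 16 h (horizontal) for each tested member (grey points) of each gene list (vertical, number tested in brackets), with the list median in red. Medians ran from -1.31 for chemokine receptors and homing to 4.49 for inflammatory cytokines; 24 of 24 MHC class I and 40 of 40 ribosome biogenesis genes lay to the right of 0.

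Most of the genes that define pDCs fell. All 33 listed identity genes were tested, 26 fell and 4 rose, with a median of -1.14, and 17 fell at least 2-fold. Siglech, the gene of a pDC-specific sialic acid lectin, had 1650.0, 1623 and 1633 CPM with vehicle and 168, 168 and 171 CPM with imiquimod. It fell to about the same level in all 3 imiquimod libraries, by -3.28 (SE 0.034, adjusted p = 4.77e-78) on the log2 scale. Tcf4, the factor that specifies pDCs, had 1619.8, 1621 and 1593 CPM with vehicle and 727, 739 and 729 CPM with imiquimod, a log2 change of -1.14 (SE 0.035, adjusted p = 7.84e-44). Runx2, which pDCs need to leave the bone marrow, fell (log2 -2.15). Other large falls were of Atp1b1, a subunit of the sodium pump (-5.46), Cd209d, another lectin (-5.11), Upb1, a pyrimidine catabolism enzyme (-4.74), Dntt, the terminal transferase (-3.57), and Cox6a2 (-2.60). The 4 that rose were Ly6d (1.98), Ptcra (1.33), Pld4 (0.35) and Lag3 (0.33). Bst2, Blnk (-0.03) and Klk1 (0.34) were not called.

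Transcription factors of the dendritic cell lineages moved both ways, 11 of 32 higher and 19 lower. Batf, an AP-1 family factor gene, had 9.37, 9.66 and 10.2 CPM with vehicle and 148, 151 and 156 CPM with imiquimod, a log2 change of 3.96 (SE 0.069, adjusted p = 4.97e-62). Klf4 and Klf2, Krüppel-like factor genes of resting cells, moved in the other direction. Klf4 had 71.1, 80.1 and 72.1 CPM with vehicle and 5.19, 3.23 and 3.69 CPM with imiquimod, a log2 change of -4.20 (SE 0.10, adjusted p = 1.61e-34). Klf2 fell (log2 -3.59) and Ikzf2, which encodes Helios, (log2 -3.0). Batf3, the cDC1 factor (-0.06), and Zeb1 (0.06) were not called.

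Markers of other cell types moved in both directions, and their part in the results above was not tested. Of 10 cDC1 markers 10 were tested, 9 fell and 0 rose, with Naaa (-5.53) and Snx22 (-4.51) among the largest falls and Gcsam at 3 counts against 141. Of 9 cDC2 markers 5 fell, Clec10a, a lectin gene, among them (-3.63), and 2 rose, Clec4a2 (0.43) and Itgam (0.35), but 1 without vehicle replicate 2 or 3 or imiquimod replicate 1 or 2. Of 14 monocyte or macrophage markers 10 were tested, 5 fell and 3 rose. Csf1r, the receptor gene of the macrophage growth factor, had 118, 119.8 and 121 CPM with vehicle and 6.87, 5.71 and 4.89 CPM with imiquimod, a log2 change of -4.35 (SE 0.072, adjusted p = 1.6e-63). Lyz2, the lysozyme gene, fell (log2 -3.54), whereas Fcgr1, an interferon-inducible Fc receptor gene, rose by 3.41, C1qb, a complement gene, by 1.48 and Cd14, a co-receptor gene for lipopolysaccharide, by 1.11. Of 9 basophil or mast cell markers 3 were tested, of which 1 rose (log2 1.65) and 1 fell. The one that fell was Kit, read in basophils and mast cells as well as progenitors (log2 -0.64). The 9 summed to 145 to 149 CPM with vehicle and 92.6 to 96.8 CPM with imiquimod.

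Nearly all of the difference in T or NK cell markers came from Cd8a. The 15 markers summed to 19.8 to 24.1 CPM with vehicle and 908 to 963 CPM with imiquimod. Cd8a (chr6:71373427-71379173), the alpha chain of CD8, which some mouse dendritic cells also carry, had 6.16, 8.07 and 6.61 CPM with vehicle and 937, 884 and 909 CPM with imiquimod. It made up nearly the whole sum in the imiquimod libraries and rose by 7.03 (SE 0.056, adjusted p = 1.38e-85). The T cell receptor complex was at or near 0: Cd3e had 4 counts with imiquimod and 4 with vehicle, Cd3d 1 and 2, and Cd3g 0 and 5. Trac had 6 and 3 counts. Of the others, Klrb1c, an NK receptor gene, rose by 4.25 (119 counts against 5) and Tbx21, which encodes the lymphocyte factor T-bet, by 3.45.

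Of 11 immunoglobulin constant region genes tested, 6 rose at least 2-fold and 0 fell as far, while several B cell genes fell. Of 30 listed B lineage and immunoglobulin genes 25 were tested, 13 rose and 10 fell. Ighg2c (chr12:113285325-113288932), the heavy chain gene of the IgG2c class, had 0.0919, 0.621 and 0.174 CPM with vehicle and 291, 273 and 274 CPM with imiquimod. It was nearly unread in every vehicle library and high in every imiquimod library, a log2 change of 9.83 (SE 0.12, adjusted p = 9.01e-65). Ighg2b had 1.56, 0.621 and 0.522 CPM with vehicle and 131, 124 and 113 CPM with imiquimod, a log2 change of 7.09 (SE 0.14, adjusted p = 2.64e-35), and Ighe, of the IgE class, had 178 counts against 0, at least 50.6-fold. Igha (3.54), Ighg3 (3.66), Igkc (2.33) and Ighm (0.64), chosen after their values were seen, also rose. Pax5, the master factor of B cells, had 23.4, 19.3 and 21.2 CPM with vehicle and 138, 133 and 128 CPM with imiquimod, a log2 change of 2.64 (SE 0.060, adjusted p = 3.1e-54). Cd79a and Cd79b, the signalling chains of the B cell receptor, fell (log2 -1.08 and -0.83), as did Fcer2a, the gene of CD23 (log2 -4.03). Rag1, of antigen receptor recombination, had 3 counts against 95. Of 10 B cell markers 7 were tested, 6 fell and only Pax5 rose, with a median of -0.62. The 10 summed to 118 to 148 CPM with vehicle and 193 to 205 CPM with imiquimod, and the rise of Pax5 alone, from 21.3 to 133 CPM, was larger than the rise of the sum. Whether the immunoglobulin reads came from B cells in the cultures was not tested.

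Cell cycle genes were higher with imiquimod than in the 16 h vehicle, where they lay below their 0 h level. All 40 DNA replication and S phase genes were tested, 38 rose and 1 fell, with a median of 2.44. In the vehicle at 16 h all 40 lay below the vehicle at 0 h with no overlap (32.8% of all genes did so), and with imiquimod 37 lay above it (39.8%); both counts share the 0 h libraries. Uhrf1, which maintains DNA methylation at replication, had 14.1, 16.0 and 16.1 CPM with vehicle and 167, 172 and 175 CPM with imiquimod. Its mean at 0 h was 92.7 CPM, and the log2 fold change at 16 h was 3.47 (SE 0.057, adjusted p = 1.33e-63). Mcm10 and Cdc6, which load and fire replication origins, rose by 3.52 and 3.40, and Gins2, of the replicative helicase, by 3.62, with 67.3% of its exon bases overlapping a gene on the other strand.

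All 38 mitosis genes were tested, 30 rose and 4 fell, with a median of 0.97. Here too all 38 were lower in the vehicle at 16 h than at 0 h, but with imiquimod 24 were still below the 0 h vehicle (38.0% of all genes were) and 5 above it. Cdk1, the mitotic kinase, had 6.25, 9.58 and 7.57 CPM with vehicle and 26.3, 27.0 and 28.6 CPM with imiquimod, and its mean at 0 h was 24.2 CPM. The groups did not overlap and the log2 fold change was 1.80 (SE 0.100, adjusted p = 2.44e-28). Top2a, the topoisomerase that condenses and separates chromosomes, rose by 1.71, Spc24 and Spc25, of the kinetochore, by 1.85 and 1.78, and Mki67, the proliferation antigen, by 0.96 from 141 ± 2.74 to 275 ± 7.95 CPM.

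**Figure D4:**
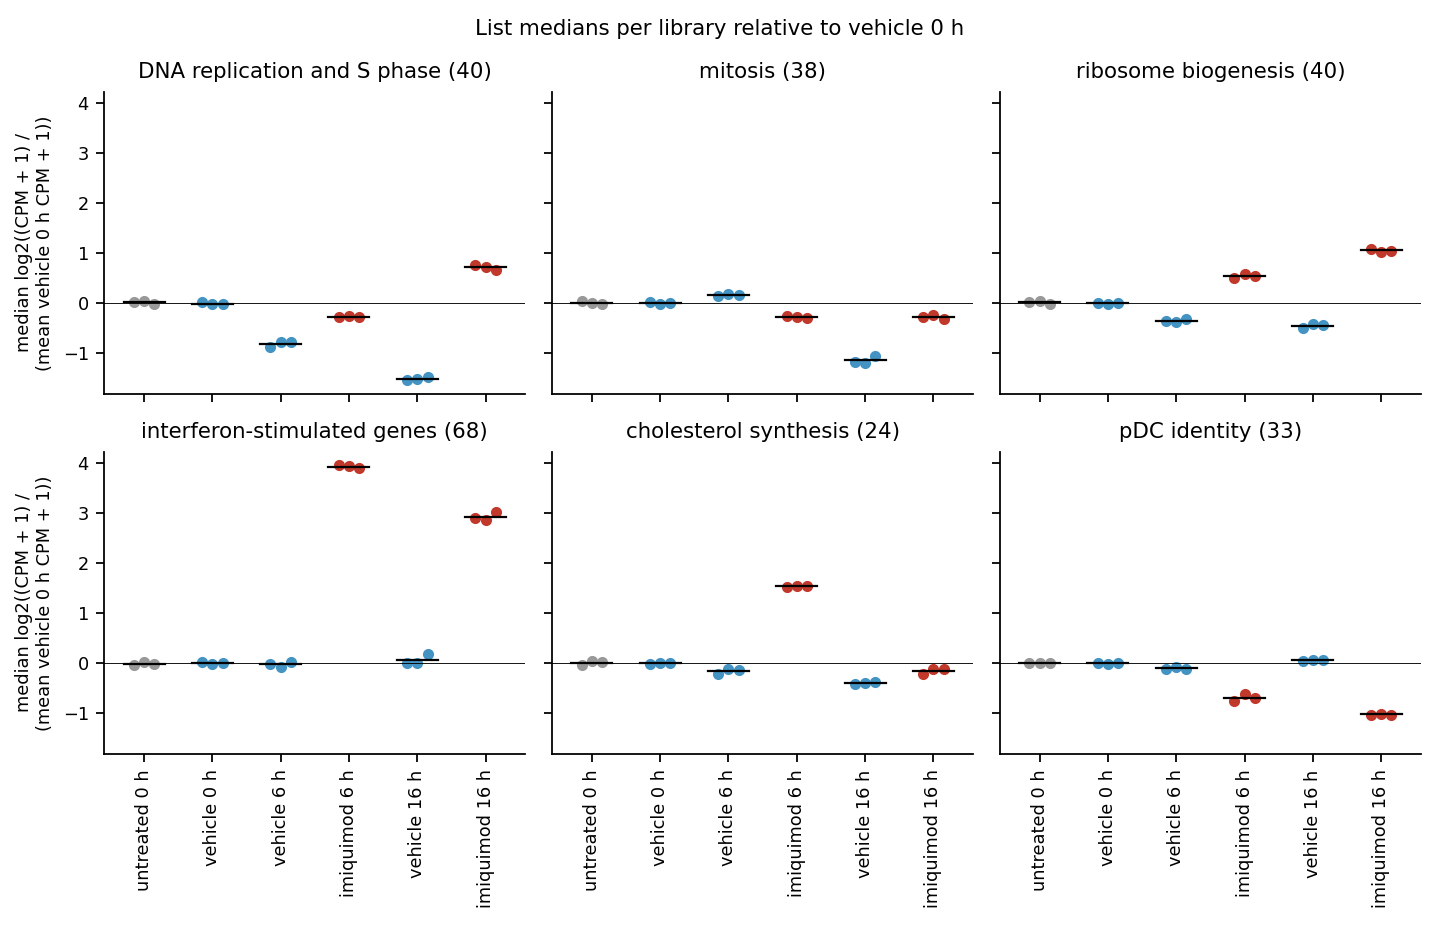
Median over the tested members of 6 lists of log2((CPM + 1)/(mean vehicle 0 h CPM + 1)) (vertical) in each library, by group (horizontal); points are libraries and lines are group means. DNA replication and mitosis genes were lower in the vehicle at 16 h than at 0 h, and higher with imiquimod at 16 h than in that vehicle. With imiquimod at 16 h, DNA replication genes were above the 0 h level and mitosis genes below it. At 6 h mitosis genes were lower with imiquimod than with vehicle. Ribosome biogenesis genes were highest with imiquimod at 16 h, and pDC identity genes were lowest there. Interferon-stimulated and cholesterol synthesis genes were higher with imiquimod at 6 h than at 16 h.

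Ribosome biogenesis and proteasome genes rose with near uniformity. All 40 ribosome biogenesis genes were tested and all 40 rose, 36 at least 2-fold, with a median of 1.62. Myc, the growth factor-responsive driver of these genes, had 3.22, 3.46 and 4.09 CPM with vehicle and 121, 119 and 119 CPM with imiquimod. The imiquimod libraries lay close together, far above the vehicle libraries, and the log2 fold change was 5.05 (SE 0.084, adjusted p = 1.88e-63). Nop56, of the box C/D snoRNA particle, rose by 2.40, Rrp1b by 2.39 and Bysl by 2.35. The cytosolic ribosomal protein genes did not follow: of 46 tested 23 rose, 7 fell and 16 were not called, with a median of 0.10, and a fit of only these 6 libraries called 12 lower. Of 34 proteasome genes 33 rose and none fell, with a median of 1.21, led by Psma6, of the core particle (2.42).

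Stress and folding genes rose more often than they fell. Of 32 listed genes of the integrated stress response and amino acid supply 30 were tested and 28 rose, with a median of 1.24. Asns, asparagine synthetase, had 1.65, 1.33 and 1.39 CPM with vehicle and 16.5, 17.6 and 18.8 CPM with imiquimod, a log2 change of 3.59 (SE 0.17, adjusted p = 2.14e-32). The pathway's targets Trib3 (3.78), Chac1 (3.37) and Nupr1 (2.72) rose from levels under 1 CPM. Of 25 unfolded protein response and folding genes 18 rose and 4 fell, and Hspa5, the main chaperone of the endoplasmic reticulum, rose by 1.83 from 384 ± 4.03 to 1364 ± 36.2 CPM. Of 28 listed heat shock and oxidative stress genes 27 were tested, 17 rose and 5 fell. Gsr, glutathione reductase, rose by 2.77 and Txn1, thioredoxin, by 2.16.

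Metabolic lists had small medians, although some of their members changed by at least 2-fold. Of 40 citrate cycle and oxidative phosphorylation genes 30 rose and 3 fell, with a median of 0.41 and 2 at least 2-fold higher, Atp5b (1.11) and Idh3a (1.10). Of 30 glycolysis and hypoxia genes 15 rose and 10 fell, with Tpi1, a glycolytic enzyme, rising by 1.81 and Egln3, an oxygen sensor, falling (log2 -2.68). The median of that list was 0.21, with 8 genes at least 2-fold higher and 5 at least 2-fold lower. Of 25 listed cholesterol synthesis genes 24 were tested, 14 rose and 6 fell, with a median of 0.32. The 15 genes listed with cholesterol export were split, 6 higher and 5 lower, with a median of -0.03. The largest fall among them was that of Abca1, the cholesterol export pump. Abca1 had 29.9, 28.6 and 30.7 CPM with vehicle and 2.05, 2.03 and 2.24 CPM with imiquimod. It was lower in every imiquimod library, at a log2 change of -3.81 (adjusted p = 1.26e-43).

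Of 24 listed genes of fatty acid uptake and storage 22 were tested, 12 rose and 7 fell. Cd36 (chr5:17781690-17888801), the scavenger receptor that takes up fatty acids and oxidised lipoproteins, had 18.1, 20.2 and 19.8 CPM with vehicle and 875, 914 and 828 CPM with imiquimod. The rise was seen in all 3 imiquimod libraries at 5.49 (SE 0.054, adjusted p = 3.15e-65). Mgll, which releases fatty acids from monoglycerides, rose by 3.85. Cpt1a, which admits fatty acids to mitochondria for oxidation, had 111, 114 and 114 CPM with vehicle and 9.50, 9.46 and 8.26 CPM with imiquimod, a log2 change of -3.63 (SE 0.066, adjusted p = 8e-61). Lpl, lipoprotein lipase, fell (log2 -3.57).

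Apoptosis regulators rose more often than they fell. Of 39 listed 36 were tested, 24 rose and 8 fell, with a median of 0.60. Bcl2l1, the BCL-XL gene, whose product keeps cells alive, had 10.6, 10.1 and 8.88 CPM with vehicle and 131, 115 and 127 CPM with imiquimod, a log2 change of 3.66 (SE 0.068, adjusted p = 6.94e-60). Its groups did not overlap. Bcl2 rose by 1.32, and the survival genes Bcl2a1a (5.37), Bcl2a1d (4.56) and Bcl2a1b (4.10) rose as a family whose members share 55.2% to 68.4% of their windows. Bik, a death-promoting relative, had 50 counts against 0, at least 14.2-fold. Of 25 listed p53 targets 22 were tested, 16 rose and 6 fell, with Plk3 (3.38), Phlda3 (2.63) and the TRAIL receptor gene Tnfrsf10b (2.28) among the largest rises.

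The remaining lists were divided. Of 34 lysosome genes 10 rose and 19 fell, with the protease Ctsl (-2.32) falling beside Psap. Of 40 actin, adhesion and dendrite genes 20 rose and 17 fell, from Tubb6, a tubulin (4.11), to S100a10 (-2.91). Of 28 listed immediate-early genes 27 were tested, 14 rose and 10 fell, with Dusp2, a phosphatase, up by 3.18 and Fosb, an AP-1 gene, at 3 counts against 30. Of 21 inflammasome and pyroptosis genes 5 rose and 12 fell: Casp4, which senses lipopolysaccharide, rose by 3.42 and P2rx7, the ATP receptor, fell (log2 -2.55). Of 32 listed complement, acute phase and secreted defence genes 12 were tested, 8 rose and 3 fell. C3, the central complement component, rose by 4.31, Saa3, an acute phase protein, had 222 counts against 3, and Mmp12, a macrophage elastase, fell (log2 -4.13).

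The effect at 16 h was then set against the effect at 6 h, each measured with its own vehicle. The 2 sets of log2 fold changes had a Pearson correlation of 0.824 and a Spearman correlation of 0.749 across 14876 genes, which are not independent replicates. At 6 h, 16.2% of genes were called at least 2-fold higher and 19.3% at least 2-fold lower. Of genes at least 2-fold higher at 16 h, 1546 were also so at 6 h, 62.6% of the 16 h set and 64.2% of the 6 h set. Of those at least 2-fold lower, 1794 were shared, 71.8% and 62.6%. The difference between the effects was called in 56.9% of genes, 4246 with a higher value at 16 h (28.5%) and 4222 with a lower one (28.4%). Scaled by library totals, 6951 were higher and 2257 lower, so 75.5% of calls were higher in place of 50.1%, and the median difference was 0.33 in place of -0.01. The direction of the difference for a list is therefore given with both scalings.

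The induced immune genes had come down from their 6 h values. Of 68 tested interferon-stimulated genes 60 had a smaller effect at 16 h and 0 a larger one (54 and 2 scaled by library totals), with a median effect of 4.21 at 6 h and 2.83 at 16 h. Gbp2, an interferon-induced GTPase gene, rose by 7.85 at 6 h and by 3.46 at 16 h, a difference of -4.40 (SE 0.12, adjusted p = 1.99e-47). Il12b rose by 8.58 and 4.52, a difference of -4.06 (SE 0.13, adjusted p = 1.67e-41). NF-kappaB genes were lower in 22 and higher in 1 (20 and 3 by library totals). All 24 tested cholesterol synthesis genes had a smaller effect at 16 h (23 by library totals), with medians of 1.77 and 0.32. The heat shock genes Hspa1a and Hspa1b had risen by 4.87 and 4.79 at 6 h and were not called at 16 h (0.14, adjusted p = 0.616, and 0.18, adjusted p = 0.27), and their reads are exchangeable, with 54.2% and 55.8% of windows shared. Notch3, a Notch receptor gene, and Grin2c, a glutamate receptor subunit gene, rose by 5.57 and 5.54 at 6 h and by 0.90 and 0.61 at 16 h.

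The effect on growth genes, measured against the vehicle of the same time, went the other way. All 40 DNA replication genes had a larger effect at 16 h under both scalings, with medians of 0.53 at 6 h and 2.44 at 16 h. Of 38 mitosis genes 37 did so (medians -0.43 and 0.97), and of 40 ribosome biogenesis genes 38 (40 by library totals). Relative to vehicle 0 h, the mitosis list median with imiquimod was -0.26 to -0.29 at 6 h and -0.24 to -0.30 at 16 h. With vehicle it was 0.14 to 0.18 at 6 h and -1.06 to -1.20 at 16 h. The imiquimod level of the mitosis list was thus about the same at both times, and the vehicle level was lower at 16 h. Exo1, a DNA repair exonuclease gene, rose by 0.74 and 3.54, a difference of 2.80 (SE 0.20, adjusted p = 1.51e-21). Kntc1, a kinetochore gene, had a log2 fold change of 0.08 at 6 h and rose by 2.74 at 16 h. Cd81, a tetraspanin gene, rose by 3.64 at 16 h, a difference of 2.86 (SE 0.18, adjusted p = 5.26e-24), and Serpinf1, a secreted serpin gene, by 3.23, a difference of 3.0 (SE 0.22, adjusted p = 3.7e-21). The effect on pDC identity genes was lower at 16 h than at 6 h in 27 of 33 (23 by library totals). Siglech fell at both times (-1.95 and -3.28), and Dntt was slightly higher at 6 h (0.22) and fell at 16 h (-3.57). Lists whose majority turned under library totals, MHC class I presentation among them (7 higher and 12 lower, then 14 and 9), are given no direction here.

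Only 7 genes that averaged at least 10 CPM across the 12 libraries of 6 and 16 h changed by at least 2-fold in opposite directions at the 2 times. The histone genes Hist1h2bm and Hist1h3b fell at 6 h (-1.30 and -1.20) and rose at 16 h (1.02 and 1.08), with 58.6% of the windows of Hist1h3b shared. Hip1, an endocytic adaptor gene (1.93 then -1.47), Ccl9 (1.26 then -1.34), Sema4f, a semaphorin gene (1.29 then -1.56), Pou6f1, a POU factor gene (1.12 then -1.69), and Hspa4l, a heat shock relative (1.16 then -1.08), rose at 6 h and fell at 16 h.

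**Figure D5:**
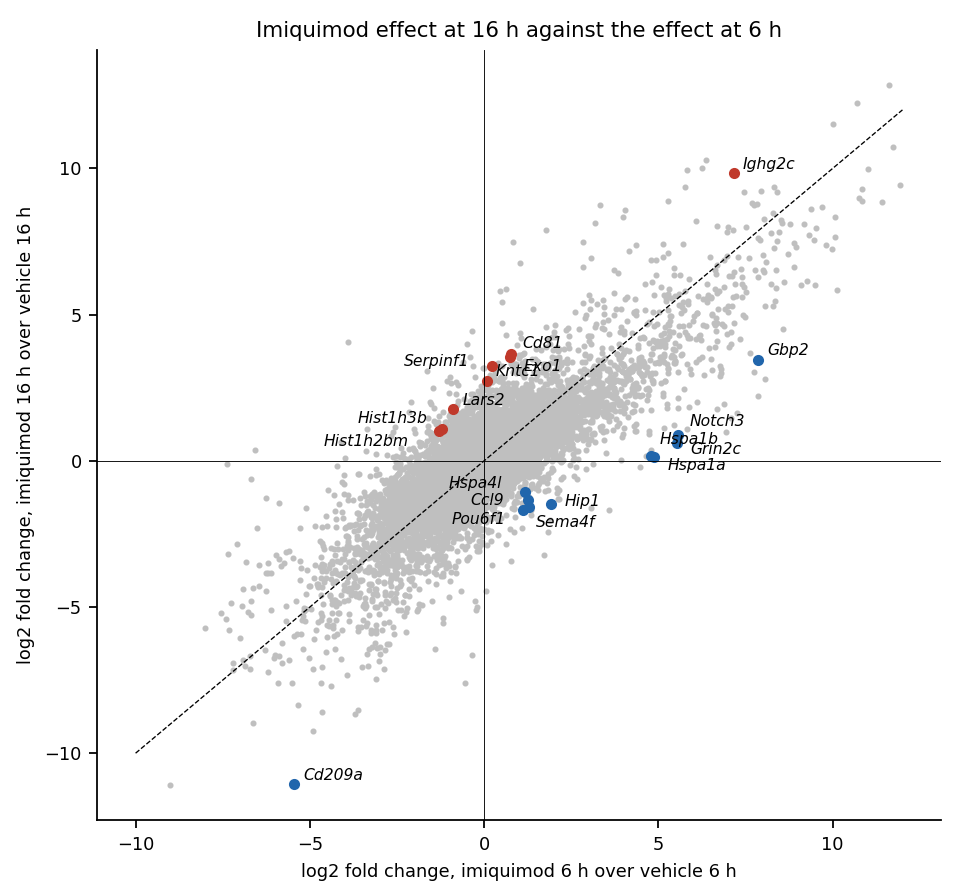
Log2 fold change of imiquimod over its vehicle at 16 h (vertical) against that at 6 h (horizontal), 1 grey point per gene tested, with the line of equal effects dashed. Red genes had a higher value at 16 h and blue genes a lower one by the test of the difference; Gbp2 rose by 7.85 at 6 h and 3.46 at 16 h, and Cd209a, with 0 counts in the imiquimod libraries at 16 h, lies at the bottom.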

How the data were processed

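The authors deposited whole-number counts for 54532 genes in 18 libraries, and the submitters' processing notes name STAR and mm10. No source used here gives the counter, its strand setting or the annotation. GENCODE M21 (GRCm38) matched 97.8% of identifiers and supplied coordinates, exon overlaps and the share of 75 nt windows found in other genes' transcripts.

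All 6 groups of 3 libraries entered a single edgeR 4.0.16 model (R 4.3.3; TMM, robust quasi-likelihood F-test), with 14876 genes passing filterByExpr (minimum count 10). The contrasts were imiquimod against vehicle at 16 h, at 6 h, and their difference. Calls needed a Benjamini-Hochberg adjusted p under 0.05 over all genes tested. The biological coefficient of variation was 3.08%. Each SE is the absolute log2 fold change over the square root of F, which understates the error of genes with few counts. A group with 0 counts was set at 3 counts for fold bounds, and exact 95% intervals cover counting error only. The method was tested on simulated data for this comparison (14359 genes): all 200 genes changed by log2 1, -1, 2 or -2 (50 each) were called, and 9 of 14159 unchanged ones. The changed genes were balanced in direction and had a mean of at least 50 counts, and every gene had the same spread. The simulation therefore does not cover data in which most genes change, or genes with few counts.

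The members, the lists (those of the report, and markers of pDC, cDC1, cDC2, monocyte or macrophage, neutrophil, basophil or mast cell, B cell, T or NK cell and erythroid or megakaryocyte) and the rule for names were chosen with earlier results of these data known. Named were the 12 largest rises and falls among called genes of at least 10 CPM without overlap, the 8 largest in CPM each way, up to 4 called members a list and members in counts of 5 or fewer, a panel of pathway genes, and the 6 largest differences between the times each way with genes of opposite direction. Predicted genes and small RNAs were not named, and some genes that the rule selects are not reported here. Alternatives were DESeq2 size factors, library totals, no expression filter, 1 CPM in 3 libraries, a replicate block, the DESeq2 1.42.0 Wald test, only the groups compared, each library left out and, added after the data were seen, rRNA genes left out. RefSeq promoter windows (GRCm38.p6) were searched over 250 upstream bases on both strands.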

Additional observations from a re-analysis of the deposited data

Results flagged for a closer look

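The results below are effects of imiquimod that differed between the 2 times by the test of the difference itself (edgeR, 16 h minus 6 h, log2). They were picked as the largest differences each way or as genes of opposite direction among genes that averaged at least 10 CPM across the 12 libraries of these times.

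Among genes with a higher value at 16 h, Serpinf1 differed by 3.0, Cd81 by 2.86, Exo1 by 2.80 and Kntc1 by 2.65. Cd81 and Exo1 also rose at 6 h, while Serpinf1 (0.23) and Kntc1 (0.08) were not called there. Ighg2c differed by 2.66, and without vehicle 6 h replicate 1 the value was 2.02 and was no longer called (adjusted p = 0.222). Lars2, a mitochondrial leucyl-tRNA synthetase gene, also differed by 2.66 (adjusted p = 0.044), but its 16 h groups overlapped and imiquimod replicate 2 held the highest value, far above the others. Without that library its 16 h effect was 0.88 (adjusted p = 0.237) and the difference 1.78 (adjusted p = 0.118). The histone genes Hist1h2bm and Hist1h3b, which fell at 6 h and rose at 16 h, differed by 2.32 and 2.28.

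Among genes with a lower value at 16 h, Cd209a differed by -5.62, Grin2c by -4.94, Hspa1a by -4.73, Notch3 by -4.67, Hspa1b by -4.61 and Gbp2 by -4.40. Cd209a fell at both times and had 0 counts with imiquimod at 16 h, so its fitted difference is not a measured size. The genes that rose at 6 h and fell at 16 h were Hip1 (-3.40), Sema4f (-2.86), Pou6f1 (-2.81), Ccl9 (-2.60) and Hspa4l (-2.24).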

How the results depend on the processing

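No called effect of a named gene changed sign under any alternative run. For the difference between the times, library totals turned the majority of members in 10 lists. Examples are TLR7 signalling adaptors and kinases (4 higher and 13 lower, then 11 and 7), unfolded protein response and folding (3 and 14, then 12 and 6), lysosome (8 and 18, then 17 and 12) and apoptosis regulators (10 and 18, then 13 and 11). Of 241 named genes with a value at 16 h, 238 kept their call in every alternative, Ppbp and Lars2 lost theirs in at least 1, and Tlr7 gained one. The difference between the times was lost for Lars2 in several alternatives and for Ighg2c without vehicle 6 h replicate 1. Genes higher numbered 5538 (DESeq2 Wald test) to 6144 (no expression filter) and genes lower 5374 to 6024; leaving out each library gave 5663 to 5791 and 5456 to 5582. The difference between the times moved with library totals, to 6951 higher and 2257 lower; this scaling carries no correction for composition. Small list counts moved as follows. With no expression filter, lower members numbered 5 for complement, acute phase and secreted defence, 2 for basophil or mast cell and 1 for T or NK cell markers, and higher members 1 for cDC2 and 2 for erythroid markers. With 1 CPM in 3 libraries 1 neutrophil marker was lower. With the DESeq2 Wald test 1 cDC2 marker was higher and 0 erythroid markers were lower. With only the groups compared, 12 ribosomal protein genes, 1 neutrophil and 0 erythroid markers were lower. Leaving out each library gave 1 to 2 higher erythroid, cDC2 and pDC markers, 0 to 1 lower erythroid markers and 1 to 2 lower interferon-stimulated genes. The cause of these shifts was not tested.

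Deviations of same-numbered 16 h libraries from their group means correlated at 0.044, 0.019 and 0.042, and those of differently numbered libraries at -0.061 to 0.020. With 3 libraries a group, values this small cannot decide whether the replicate numbers pair the samples. With the replicate block 5803 genes were higher and 5645 lower, 2467 and 2502 by at least 2-fold, and the difference between the times had 4210 higher and 4188 lower. The block ended 1 named call, the difference for Lars2 (2.61, adjusted p = 0.0548). The interferon genes, Gzmb, Prf1 and Fasl had too few counts for the filter, and the cause of their low counts was not tested.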

Other observations

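Small nucleolar RNA genes, which guide the modification of ribosomal RNA, were in no list. Of 111 tested, 30 were called at least 2-fold higher and 8 at least 2-fold lower at 16 h, against 16.6% and 16.8% of all genes. Of 29 tested immunoglobulin variable segment genes 9 were at least 2-fold higher and 0 lower, and of 11 constant region genes 6 and 0. Of 987 tested loci annotated as transcripts still to be experimentally established, 93 were at least 2-fold higher and 223 lower. Trp73, the gene of a p53 relative, was too low to test and had 32 counts over the imiquimod libraries against 2, a ratio of 13.6 (exact 95% interval 3.48 to 117).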
